A study of Mus musculus with 3 samples.

Results

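The genes described here are the synaptic vesicle release genes of DNs, the dopaminergic neurons of the mouse midbrain, and what was measured is where their chromatin is accessible. The rule for members reads gene symbols and no measured value, although it was set with earlier results of these data known. It takes autosomal protein-coding genes of the GENCODE M21 annotation whose symbols are Syt, Stx, Vamp, Cplx, Syn, Snap or Stxbp followed by a number, together with Sv2a to Sv2c, Rab3a to Rab3d, Rims1 and Rims2. This gave 66 of the 20807 autosomal protein-coding genes. The rule uses names, so it also takes in syntaxins and VAMPs of other membrane traffic, synaptotagmins found mostly outside synapses, and Snap91, a clathrin adaptor that shares only the letters of its symbol with Snap25. X-linked relatives fall outside it.

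The data are snATAC-seq of the VTA (ventral tegmental area) of male C57Bl/6Nl mice, in 2 libraries at 7 and 9 weeks of age. In this assay a transposase cuts open chromatin in isolated nuclei, and barcodes assign each fragment to a nucleus. The authors selected the DN cluster and deposited 1 list of 55326 accessible peaks, each 500 bp wide, made from both libraries together. The mice were wild type and untreated as far as the labels say. The list gives positions only, without a height, a score or a count. No value below therefore has a spread between replicates, no difference was tested, the depth behind a single peak is unknown, and a gene without a peak is one where none was called. The mES cell sample of the series was not analysed here. The authors chose the cluster by gene scores of Th and named Lmx1b, Foxa1, Foxa2 and Slc6a3 with it, so peaks at these 5 genes (3 to 31 each) do not check the cell type. The other 5 markers of dopaminergic neurons also held peaks, with 18 in Ddc, 8 in Slc18a2, 7 in Nr4a2, 4 in En1 and 3 in Pitx3, whereas peaks were listed for 0 of 4 markers of oligodendroglia, 2 of 3 of astrocytes, 1 of 3 of microglia and 4 of 5 of other neurons. The astrocyte and microglia markers with peaks held up to 5 and 9, and their part in the results below was not tested.

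Release of transmitter rests on a small machine. VAMPs on the vesicle and syntaxin with SNAP-25 on the plasma membrane are SNARE proteins that zip together and pull both membranes into fusion. Syntaxin-binding proteins guide syntaxin, complexins clamp and promote the assembled complex, and synaptotagmins sense the calcium that triggers fusion. Rab3 and RIM proteins bring vesicles to the active zone, synapsins hold the reserve of vesicles, and SV2 proteins are vesicle membrane proteins. DNs use this machine at axon terminals and also release dopamine from their cell bodies and dendrites. Other SNAREs of the same families serve the Golgi, endosomes, autophagosomes or regulated secretion in other cells.

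A peak was counted for a gene when it overlapped the gene body or the 2 kb upstream of it. Of the 66 members, 54 (81.8%) held at least 1 peak, with a 95% exact binomial interval of 70.4% to 90.2%, beside 66.1% of all genes. A peak centred within 1 kb of a TSS (transcription start site of a protein-coding transcript) was found for 53 members (80.3%, interval 68.7% to 89.1%), beside 56.9% of all genes. These intervals cover counting error only, and paralogs are not independent draws. A peak more than 1 kb from every TSS was held by 43 members (65.2%), beside 38.1%. Peak counts rise with gene length (Spearman correlation 0.55 across the 66 members and 0.48 across all genes, which are not independent of each other). Each count was therefore read as a percentile among the 500 genes nearest in length, with ties counted as 0.5. The median percentile of the members was 73.1 (quartiles 29.6 and 86.6, range 6.5 to 99.1), against 46.2 for all genes. Its 95% order-statistic interval, 46 to 80.6, reached the value of all genes. At or above the 50th percentile were 41 members (62.1%), beside 46.6% of all genes, and at or above the 75th were 32 (48.5%, interval 36% to 61.1%), beside 24.1%. The share at or above the 90th percentile, 9 of 66 or 13.6% (interval 6.43% to 24.3%), lay near the background of 9.93%. Sv2a stood just inside this threshold at 90.3 and Snap47 just outside at 89.2. At or below the 10th percentile were 2 members (3.03%), beside 3.37%.

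Genes of the central machine and genes of other traffic were then described apart. The 20 genes of the neuronal release core (among them Stx1a, Snap25, Vamp1, Vamp2, Syt1, Syt2, Syt7, Cplx1, Cplx2, Rims1, Rims2, Rab3a, Rab3c, Sv2a, Sv2b, Sv2c, Syn2 and Syn3) all held peaks, had a median percentile of 87.2, and lay at or above the 75th percentile in 18 cases (90%). The 21 SNAREs of other traffic had a median of 55.7, with 5 (23.8%) at or above the 75th percentile, next to the background of 24.1%. The other 25 members, mostly further synaptotagmins and Stxbp genes, had a median of 32.6, and 9 of them reached the 75th percentile. The core was drawn up from textbook roles with earlier results of these data known, and its line runs within families (Rab3c is in it and Rab3b is not), so these counts are a description. Whole families spread widely, from 6.5 to 99.1 for synaptotagmins and from 14.7 to 96.8 for complexins. None of the 21 other SNAREs and 8 of the 20 core genes (40%) reached the 90th, beside 9.93% of all genes. The plot of percentiles by role shows the members reported here.

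**Figure D1:**
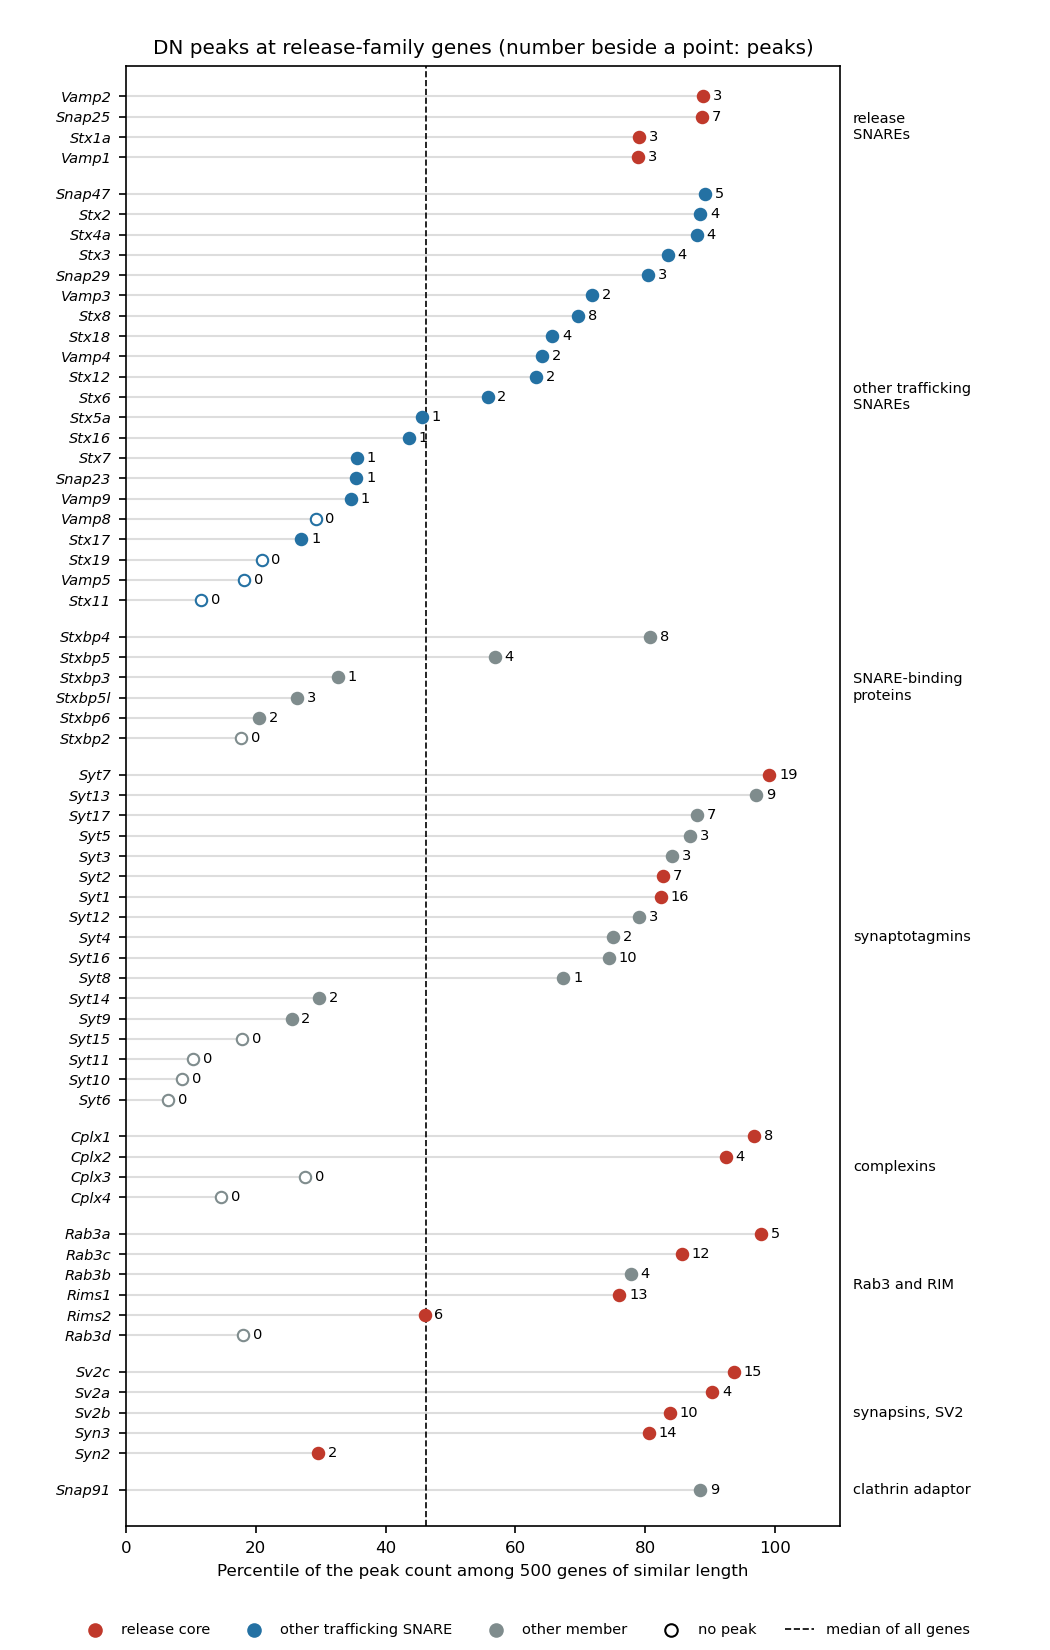
DN peak count of each member reported here as a percentile among 500 genes of similar length (x axis), by role, with the number of peaks beside each point. Red points are the release core, blue points SNAREs of other traffic and grey points other members; open points have no peak, and the dashed line is the median of all genes, 46.2. All red points except Rims2 and Syn2 lie at or above 76, whereas blue points spread from 11.6 to 89.2.

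The release SNAREs, which form the fusion complex itself, each held peaks at the TSS and beyond it. Stx1a (chr5:135023482-135051100), a plasma membrane syntaxin of neurons, held 3 peaks in 27.6 kb, at percentile 79.1, 1 at the TSS and 2 intronic. Snap25 (chr2:136713453-136782428), the SNARE that contributes a pair of helices to the complex, held 7 peaks in 69 kb, at percentile 88.8. Of these, 5 lay within 7 kb of the TSS on either side. Vamp2 (chr11:69088490-69092384), the main vesicle SNARE of the forebrain, is only 3.9 kb long and held 3 peaks, at percentile 88.9. One of them was at the TSS, with centres of the others at -1960 bp from the gene start and just past the 3′ end. Vamp1 held 3 peaks in 30.4 kb, at percentile 78.9, and 1 of these lies at the TSS of another gene, Tapbpl.

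The SNARE-binding proteins outside the core varied in their counts. Stxbp2, which acts in immune and epithelial cells, held none in 12.7 kb (percentile 17.7). Stxbp3, which acts with syntaxin in other tissues, held only the TSS peak in 47.4 kb (percentile 32.6). The tomosyns Stxbp5 and Stxbp5l, which compete for syntaxin, held 4 and 3 peaks in 146 and 270 kb (percentiles 56.8 and 26.4). Stxbp6 held 2 peaks in 222 kb (20.5) and Stxbp4 held 8 in 162 kb (80.7), of which 2 are also at the TSS of Cox11.

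Synaptotagmins spanned the whole range. Syt7 (chr19:10389090-10453180), a high-affinity calcium sensor of slow and asynchronous release, had the highest percentile of all members, 99.1, with 19 peaks in 64.1 kb where genes of similar length held a median of 2. Its peaks ran from the TSS to the last exon with a median gap of 1.68 kb and a largest gap of 16.2 kb. Syt1 (chr10:108497650-109010982), the fast calcium sensor, held 16 peaks in 513 kb, at percentile 82.4. These fell into 2 clusters: 5 lay within 7833 bp of the TSS, the next was 229194 bp downstream, and the 11 distal peaks continued to 442711 bp. Syt2 (chr1:134646677-134762593), the fast sensor of hindbrain and spinal synapses, was the only core gene without a peak within 1 kb of a TSS. Its 7 peaks were all intronic (percentile 82.7), with 1 of them centred 2195 bp downstream of the outer coding TSS and another 4436 bp downstream of the internal one. Syt13, which lacks the calcium-binding residues of Syt1, held 9 peaks in 41 kb (97.1). Syt17 followed with 7 peaks (88), Syt5 with 3 (86.9), Syt3 with 3 (84.1), Syt12 with 3 (79.1), Syt4 with 2 (75) and Syt16 with 10 (74.4). Syt8 held 1 peak (67.4), and Syt14 and Syt9 held 2 peaks each (29.7 and 25.5), 1 at the TSS and 1 over 140 kb away.

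Complexins, Rab3 proteins and vesicle proteins also differed between paralogs. Cplx1 (chr5:108518554-108550024) and Cplx2 (chr13:54371349-54383917), the complexins of most brain synapses, held 8 peaks in 31.5 kb and 4 in 12.6 kb, at percentiles 96.8 and 92.4. Cplx3 and Cplx4, complexins of the retina, held none (27.6 and 14.7). Rab3a (chr8:70754679-70758677), the vesicle GTPase of most synapses, held 5 peaks in 4 kb, at percentile 97.9, where the median of similar genes was 0. Rab3c held 12 in 227 kb (85.6), Rab3b 4 in 64.3 kb (77.8), and Rab3d, known from secretory granules of gland cells, none (18). The active zone organisers Rims1 and Rims2 are of like length, 520 and 486 kb, but held 13 and 6 peaks (76 and 46). In Rims2, 3 of the 6 were at its TSSs, among them 1 that lay 48 bp upstream of an internal TSS, 461257 bp into the gene. Sv2c (chr13:95954594-96132577), the SV2 protein of the basal ganglia and midbrain, held 15 peaks in 178 kb (93.6), Sv2a (chr3:96181151-96195521) 4 in 14.4 kb (90.3) and Sv2b 10 in 194 kb (83.8). Of the 13 Sv2c peaks away from TSSs, 8 lay in the last of 3 equal parts of the gene. Syn3 held 14 peaks in 444 kb (80.6), but Syn2 only 2 in 147 kb (29.6), 1 at the TSS and 1 intronic peak 133173 bp downstream. Rims2 and Syn2 were the 2 core genes below the 75th percentile.

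**Figure D2:**
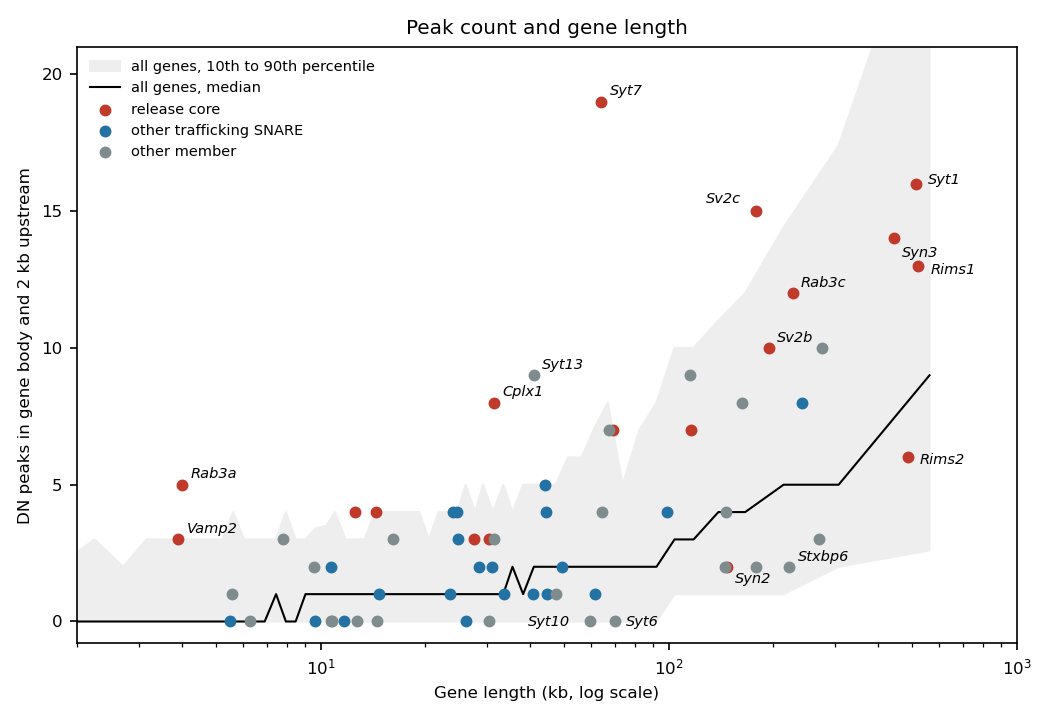
Gene length (x axis, kb, log scale) against the DN peak count of the gene with its 2 kb upstream (y axis) for the members reported here, on the median (line) and the 10th to 90th percentile (grey band) of all genes in 60 length bins. Syt7 with 19 peaks, Sv2c with 15, Syt13 with 9, Cplx1 with 8 and Rab3a with 5 are among the points above the band, while Rims2 with 6 lies below the median line.

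Most SNAREs of other traffic held a peak at a TSS, and a minority held one elsewhere. Of these 21 genes, 17 (81%, beside 56.9% of all genes) held a TSS peak, and 8 (38.1%, equal to the background) held a peak more than 1 kb from every TSS. All 20 core genes held such a peak. The genes differ in length too, with a median of 28.6 kb for the other SNAREs and 66.5 kb for the core. When peaks within 1 kb of any TSS were left out, the median length percentile was 88.2 for the core, 35.5 for the other SNAREs and 40.3 for all genes. Snap23, the relative of Snap25 in most cells, held only its TSS peak (35.5), as did Stx7 of late endosomes (35.6), Stx17 of autophagosomes (27), Stx5a of the Golgi (45.6), Stx16 (43.6) and Vamp9 (34.6). Snap47 (5 peaks), Stx2 (4), Stx4a (4), Stx3 (4) and Snap29 (3) reached percentiles between 80.4 and 89.2. Of the 4 peaks of Stx4a, 2 lie at the TSS of another gene, about 17 kb upstream of its coding TSSs. Snap47 and Snap29 each share 2 peaks with the TSS of a neighbour, Jmjd4 and Pi4ka. The only peak of Stx5a also lies within 1 kb of the TSS of another gene, 1700092M07Rik. Snap91 held 9 peaks in 115 kb (88.5).

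The 12 members without a peak were Syt6, Syt10, Syt11, Syt15, Stx11, Stx19, Vamp5, Vamp8, Cplx3, Cplx4, Stxbp2 and Rab3d. Several are known from other cells: Stx11 from cytotoxic lymphocytes, Stx19 from epithelia, Vamp8 from endosomes and exocrine granules, Vamp5 from muscle. The 4 synaptotagmins of the list are not among these, and a link between missing peaks and cell type was not tested. The 12 members were shorter than the members with peaks (median 12.2 kb against 46.1 kb). Their lowest percentiles belonged to the longest of them, Syt6 at 6.5 (70.3 kb) and Syt10 at 8.6 (59.5 kb). They did not lie in peak-poor surroundings as a group. The 50 kb on each side held a median of 4 peaks, the same as for members with peaks, against 1 for all genes without a peak. Around Rab3d and Vamp8 there were 14 peaks, and around Syt10 and Syt11 none. The peak nearest to a Syt10 TSS was 218076 bp away, whereas the one nearest to a Syt6 TSS was 4914 bp upstream of it. Syt11 (percentile 10.3) lies in a peak-free stretch of 218 kb (chr3:88686585-88904483) in which 2 other genes also start, 1 of them, Gon4l, with a CpG-rich TSS. For Syt11, closed chromatin and a stretch without calls cannot be told apart. The same holds for Vamp5 and Vamp8, which lie in a peak-free stretch of 51.3 kb (chr6:72362749-72414027) where Rnf181, also with a CpG-rich TSS, starts. Without Syt11, 54 of 65 members held a peak.

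The peaks of the members were mostly intronic. Together the 54 genes held 286 different peaks, of which 172 (60.1%) lay in introns, 85 (29.7%) within 1 kb of an own TSS, 18 (6.29%) in exons, 10 outside the gene body and 1 at the TSS of another gene. Of the peaks in the regions of all protein-coding genes, 39.5% were within 1 kb of a TSS, against 30.1% here. This comparison was not matched for length, and the members are longer (median 40.9 kb against 17.6 kb). The share of intronic peaks over all genes was not computed. In the 18 members of at least 100 kb, the 110 peaks away from TSSs were divided over 3 equal parts of the gene, from first to last, as 34.5%, 28.2% and 37.3%, against 29.6%, 31.7% and 38.7% in the 2372 genes of this length. Single genes ranged from even to uneven: Rims1 had 4, 3 and 3, Syt1 had 2, 5 and 6, Sv2b had 4, 0 and 4, and Syt16 had 5, 4 and 0. In genes with several TSSs, 1 TSS each of Rab3b, Rims1, Stx5a, Sv2b, Sv2c and Syt8 had none within 1 kb although another TSS of the gene had.

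**Figure D3:**
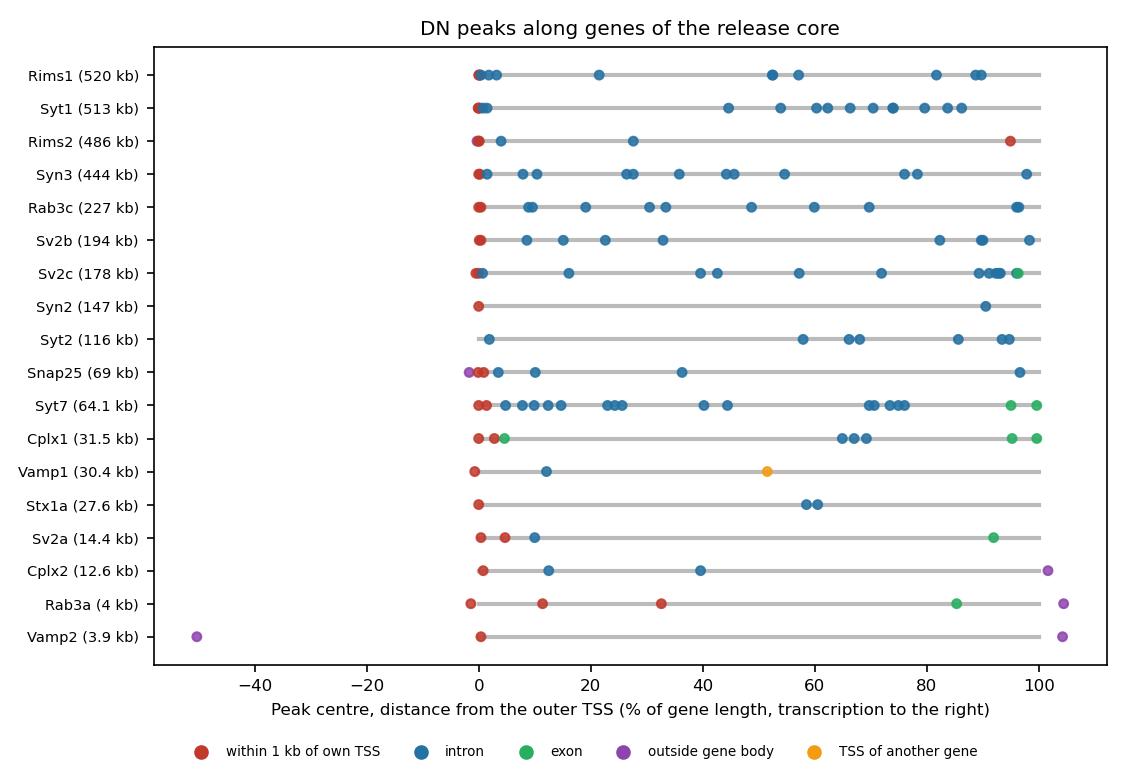
Positions of DN peaks along the core genes reported here, as distance of the peak centre from the outer TSS in percent of gene length (x axis, transcription to the right), with genes ordered by length. Each point is a peak, coloured by its position; the 19 peaks of Syt7 are spread over the gene, the 16 of Syt1 form a group at the start and one in the distal part, and Syn2 has 2 at opposite ends.

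TSS peaks were set beside the content of CpG dinucleotides, which are depleted from most of the genome but kept at many housekeeping promoters. A TSS was called CpG-rich when the window of 500 bp on each side had an observed to expected CpG ratio above 0.6 and a GC content above 50%. By this measure 44 members (66.7%) were CpG-rich, beside 50.6% of all genes with a coding TSS. CpG-rich members held a TSS peak in 36 of 44 cases (81.8%, interval 67.3% to 91.8%), and CpG-rich genes as a whole in 88.8%. The 22 members that were not CpG-rich held a TSS peak in 17 cases (77.3%, interval 54.6% to 92.2%), against 24.7% of the 10231 genes of this class. The classes differ in content, since the median CpG ratio was 0.497 in these members and 0.253 in all such genes. In a split at a ratio of 0.5, chosen after the values were seen, 8 of 12 members below it held a TSS peak (66.7%, median ratio 0.404), against 14.8% of 8436 genes (median ratio 0.211). At 0.5 or more, 9 of 10 members did (median ratio 0.574), against 71.3% of 1795 genes (median ratio 0.565). In the release core, 9 of 20 genes were not CpG-rich (among them Cplx2, Rab3c, Snap25, Stx1a, Sv2a, Sv2b, Syn3 and Syt1), and all 9 held a TSS peak. Of these, Cplx2, Snap25, Stx1a and Sv2b lay near the threshold, with ratios of 0.55 to 0.58. Rab3c had a ratio of 0.66 with a GC content of 49.8%, just below the 50% required. Of the other SNAREs, 4 of 21 were not CpG-rich, and 2 of these held a TSS peak. In the other direction, 7 of 44 CpG-rich members (15.9%, beside 7.74% of all CpG-rich genes) held no peak at all: Syt6, Syt10, Syt11, Stx11, Rab3d, Vamp5 and Stxbp2.

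Sequences next to TSSs of both kinds are shown for comparison. The 150 bases directly upstream of the outer TSS are given 5′ to 3′ on the strand of the gene, from GRCm38, which has the chromosomes of mm10, with each CpG in capitals. The first set comes from core genes with low CpG ratios whose 150 bases lie entirely in a DN peak: Sv2a with a ratio of 0.33 (chr3:96181001-96181150, plus strand), Syt1 with 0.50 (chr10:109010983-109011132, minus strand) and Snap25 with 0.55 (chr2:136713303-136713452, plus strand).
Sv2a: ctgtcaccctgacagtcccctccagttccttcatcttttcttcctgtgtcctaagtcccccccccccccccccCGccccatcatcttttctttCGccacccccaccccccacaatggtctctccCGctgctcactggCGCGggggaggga
Syt1: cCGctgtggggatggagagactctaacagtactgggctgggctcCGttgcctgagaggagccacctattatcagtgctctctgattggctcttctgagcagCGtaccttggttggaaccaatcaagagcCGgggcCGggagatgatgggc
Snap25: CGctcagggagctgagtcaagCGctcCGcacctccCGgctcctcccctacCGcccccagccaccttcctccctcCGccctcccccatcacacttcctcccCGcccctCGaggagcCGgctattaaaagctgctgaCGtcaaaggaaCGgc

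The second set comes from CpG-rich genes where no peak was called: Syt10 with a ratio of 0.74 (chr15:89841861-89842010, minus strand) and Syt6 with 0.70 (chr3:103575081-103575230, plus strand).
Syt10: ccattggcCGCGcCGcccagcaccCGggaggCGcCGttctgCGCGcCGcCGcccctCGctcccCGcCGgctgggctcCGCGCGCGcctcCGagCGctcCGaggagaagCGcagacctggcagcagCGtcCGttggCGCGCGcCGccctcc
Syt6: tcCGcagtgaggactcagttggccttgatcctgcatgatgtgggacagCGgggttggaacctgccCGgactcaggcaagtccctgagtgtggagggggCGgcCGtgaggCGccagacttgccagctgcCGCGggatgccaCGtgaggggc

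The 150 bases held 5 CpGs in Sv2a, 5 in Syt1 and 11 in Snap25, against 27 in Syt10 and 9 in Syt6. GC content was 64% in Sv2a, 58% in Syt1 and 67.3% in Snap25, against 80.7% in Syt10 and 66.7% in Syt6. The 9 CpGs of Syt6 thus lay below the 11 of Snap25, and the classes, which rest on the wider windows, overlapped in these stretches. The plot of CpG ratios shows the members reported here.

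**Figure D4:**
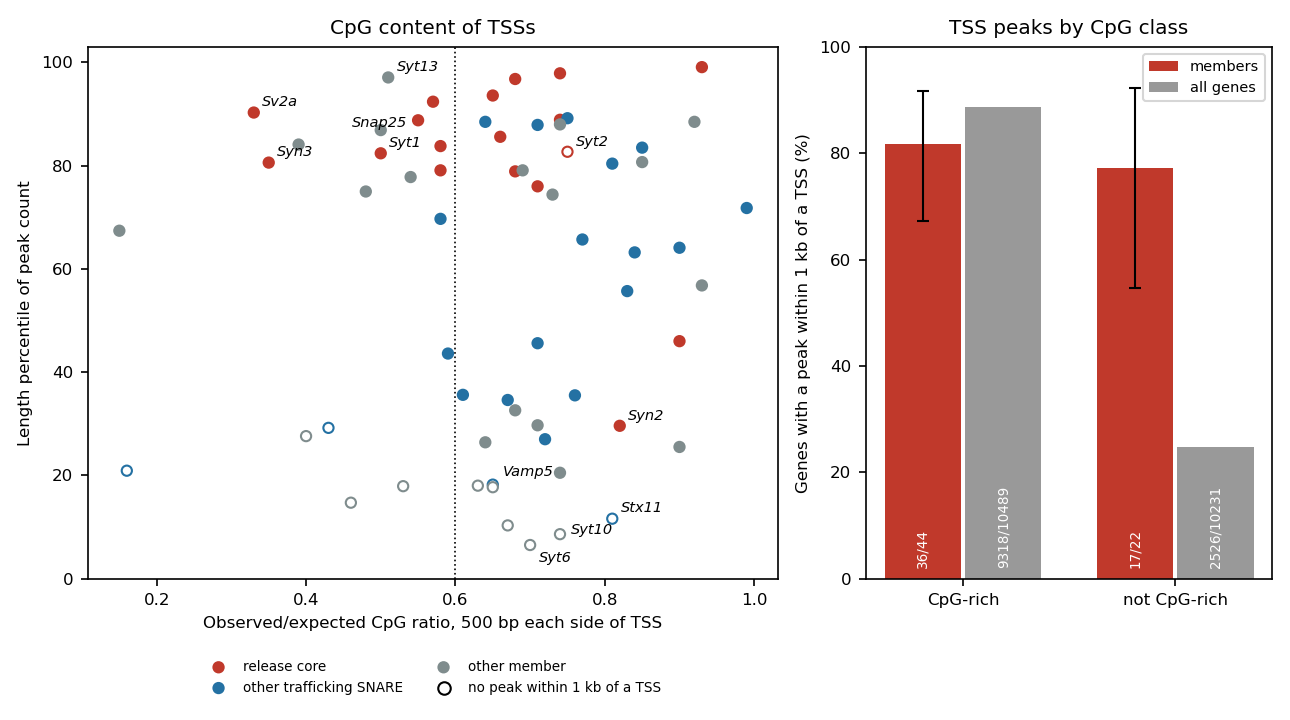
Left, CpG ratio around the TSS (x axis, highest of a gene's TSSs) against the length percentile of the peak count (y axis) for the members reported here. Open points have no peak within 1 kb of a TSS, and the dotted line marks 0.6. Rab3c, at 0.66, is classed as not CpG-rich because its GC content was 49.8%. Right, percent of genes with a TSS peak by CpG class, for members (red, with 95% exact binomial intervals) and all genes (grey): 77.3% of members that are not CpG-rich held one, against 24.7% of all such genes, whose median CpG ratio was lower (0.253 against 0.497).

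Sequence composition and the short sequences searched in the peaks are given beside the shares over all peaks of the same kind. Median GC content was 61.4% in the 86 member peaks at a TSS (of the gene or a neighbour) and 62.2% in all such peaks, and 48.1% against 49.4% in peaks away from TSSs. Of 9 short sequences searched on both strands, the cAMP response element TGACGTCA was in 3 of 86 TSS peaks (3.49%), against 3.12% of all, and in 1 of 200 other peaks (0.5%), against 0.822%. The E-box CACGTG was in 5 TSS peaks of members (5.81%) and 12.4% of all TSS peaks, and in 8.5% and 8.27% of peaks away from TSSs. Forkhead (TGTTTAC) and homeodomain (TAATTA) sequences were each in 1 TSS peak of members (1.16%), against 3.64% and 3.36% of all TSS peaks. Away from TSSs, AP-1 (TGANTCA) was in 17% against 14.6%, forkhead in 11% against 8.76%, homeodomain in 9.5% against 8.94% and NR4A (AAAGGTCA) in 5% against 5.11%. The Sp and Klf sequence GGGGCGGGG was in 26.7% of TSS peaks, against 23.4%. The parts of the RE1 element, the binding sequence of a repressor of neuronal genes outside neurons, were in few peaks of either set. GGACAGCNC was in 3 TSS peaks (3.49%, against 4.62% of all) and 4 others (2%, against 2.57%). TTCAGCACC was in 1 of each kind (1.16% against 0.918%, and 0.5% against 0.759%). Rab3c held GGACAGCNC 2 times in the same TSS peak, at chr13:110280048-110280056 and chr13:110280152-110280160.

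The 3 TSS peaks with a cAMP response element are shown because this element, bound by activity-dependent factors, lay close to the TSS in each. The element is in capitals, on the strand of the gene. In Snap25 (chr2:136713395-136713452, plus strand) its first base was 18 bp upstream of the outer coding TSS, in Vamp3 (chr4:151057954-151058011, minus strand) 18 bp upstream, and in Stxbp3 (chr3:108840593-108840650, minus strand) 84 bp upstream.
Snap25: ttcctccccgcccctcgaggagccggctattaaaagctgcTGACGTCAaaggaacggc
Vamp3: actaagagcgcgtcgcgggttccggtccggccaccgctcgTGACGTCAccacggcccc
Stxbp3: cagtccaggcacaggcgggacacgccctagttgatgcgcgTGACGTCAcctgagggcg

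Such a match is a description of the sequence and not evidence of binding. Snap25 belongs to the core, while Vamp3 (2 peaks, percentile 71.8) and Stxbp3 serve traffic in most cells.

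Other genes of the release pathway, which the naming rule does not include, were read from a list of 44 autosomal genes for active zone scaffolds, priming factors, SNARE disassembly, other vesicle proteins and vesicle recycling. All 44 held at least 1 peak (beside 66.1% of all genes), 41 (93.2%, beside 56.9%) held a TSS peak, and the median length percentile was 78.4, against 46.2 for all genes. At or above the 90th percentile were 17 of them (38.6%, beside 9.93% of all genes). The highest were Sncb, a synuclein gene, with 9 peaks in 7.74 kb (99.8), Dnm1, the dynamin that pinches off recycling vesicles, with 16 in 44.9 kb (99.7), and Unc13a, a priming factor, with 12 in 47.3 kb (98.3). The lowest were the vesicle protein gene Synpr with 3 peaks in 332 kb (23), the scaffold gene Erc1 with 3 in 277 kb (26) and Unc13b with 3 in 206 kb (33.3). Some paralogs lay apart, such as Unc13a above Unc13b and Unc13c (37), Erc2 (96.4) above Erc1, and Syngr1 (98.2) above Syngr2 (64.7), and others together, such as Rims3 (93.6) with Rims4 (91.9) and Doc2b (94.1) with Doc2a (90.8). Slc18a2, the vesicular monoamine transporter that loads dopamine, held 8 in 35.1 kb (96.5).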

How the data were processed

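snATAC-seq of the VTA was measured in 2 libraries of male mice. The authors mapped reads to mm10 with Cell Ranger, filtered nuclei, removed doublets and clustered with ArchR, chose the DN cluster and called peaks on both libraries. The deposited list holds peak positions only, each a chromosome, a start and an end, with no other unit. A filter on the share of nuclei is described by the authors. Whether it was applied to this list is not given in the sources used here. Such choices set how weak a peak could be listed. Starts were read as counted from 0 and are printed counted from 1.

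Members and lists were chosen with earlier results of these data known. Genes and TSSs came from GENCODE M21 (basic set), and sequences from GRCm38. Peaks were counted by an overlap of at least 1 bp with the gene body and 2 kb upstream, and compared with the 500 genes nearest in log length. The percentile procedure was tested on simulated data. All members may be named; of the other release genes, the 3 highest, the 3 lowest, and paralogs and dopamine-related genes chosen after their values were seen. Alternatives changed the region, overlap, peaks, TSSs, comparison genes and members. Computations used Python 3.11.15, numpy 2.4.6, pandas 2.3.3, scipy 1.17.1, pysam 0.24.0 and matplotlib 3.10.9. Results for some genes are not reported here.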

Additional observations from a re-analysis of the deposited data

How the results depend on the processing

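The 3 counts and 3 medians below were recomputed under 6 to 11 alternatives each, and stayed within 1.5 times the count or within the 95% order-statistic interval of the median. The intervals were 46 to 80.6 for members, 80.6 to 93.6 for the release core and 34.6 to 71.8 for other SNAREs. Those for members and other SNAREs are wide, so staying within them is a weak check. Counts over all 66 members at the 50th and 75th percentiles, CpG counts and shares of short sequences were not recomputed. Members with at least 1 peak numbered 41 (of 49, without the Syt genes) to 56, members with a TSS peak 41 (of 49) to 53, and members at or above the 90th percentile 7 to 12. The median length percentile was 65.8 to 74.4 for members, 83.8 to 88.8 for the release core and 35.5 to 57.8 for other trafficking SNAREs. The low end for members came from comparing only with genes that have a peak, where the median of all genes was 22.8. For other SNAREs it came from leaving out peaks at any TSS, where the median of all genes was 40.3. The other SNAREs thus moved from above the median of all genes (55.7 against 46.2) to below it. This setting also lowered those at or above the 75th percentile from 5 to 3. In the core this count was 16 to 18 across settings. Leaving out Syt11 and reading starts as counted from 1 were added after seeing the data. The first was not run for the count at the 90th percentile, and the second not for TSS peaks. Reading starts as counted from 1 left the medians of the core and the other SNAREs at 87.2 and 55.7. Removing Syt genes does not alter the other SNAREs, which hold none. Leaving out a library was not possible, since the list pools both. No paired analysis was possible because the groups compared are genes of 1 pooled list. Depth per peak is unknown, so weak accessible sites may be missing from genes without peaks, and accessibility cannot be ranked between peaks.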
